A study of Mus musculus with 2 samples.

Results

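The genes described here are 8 genes that call neutrophils into tissue or keep them supplied: the chemokine genes Cxcl1, Cxcl2, Cxcl3, Cxcl5 and Ppbp, their receptor gene Cxcr2, the cytokine gene Csf3 and its receptor gene Csf3r. They were chosen by symbol among the 32285 genes of the files. Each was followed across the cell classes of 2 scRNA-Seq libraries from mouse pancreatic tumors, 1 tumor per group. The tumors were orthotopic allografts, grown in the pancreas from KPC cells, a mouse pancreatic cancer line. Injected cells of the KPC-shV group carried a control shRNA and those of the KPC-shZEB1 group an shRNA against Zeb1. It is borne by the injected cells and not by the cells of the host. The paper describes mice given gemcitabine, a chemotherapy that the labels do not mention, and the labels give neither strain nor age. The study asked how ZEB1 drives resistance to chemotherapy and immunotherapy. It reports fewer neutrophils in the tumor after ZEB1 knockdown (KD) and links them to SPP1 from tumor cells and CD44 on neutrophils. The ligands and receptors described here are of interest because they too act on neutrophils.

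CXCL1, CXCL2, CXCL3, CXCL5 and PPBP are secreted ligands that bind CXCR2 on neutrophils and direct their migration. Their genes are induced by inflammatory cytokines through NF-κB, and neutrophils themselves make CXCL2, which relays the signal to further neutrophils. G-CSF, the product of Csf3, acts on its receptor in the bone marrow and on mature neutrophils to raise their number and prolong their life. In pancreatic cancer, cancer cells, fibroblasts and myeloid cells are all known sources of these ligands.

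The 5 chemokine genes are neighbors. On the plus strand of chromosome 5 (GRCm38, GENCODE annotation, 1-based) they lie within 147 kb, from 90759360 to 90905938, in the order Cxcl5, Ppbp, Cxcl3, Cxcl1, Cxcl2. Cxcl1 spans 90891241 to 90893115, Cxcl2 90903871 to 90905938 and Cxcl3 90786103 to 90789600. Cxcl5 spans 90759360 to 90761624 and Ppbp 90768518 to 90770063. Cxcr2 lies on chromosome 1 from 74153989 to 74161246, Csf3 on chromosome 11 from 98701263 to 98703629 and Csf3r on chromosome 4 from 126024550 to 126044440, all on the plus strand.

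The promoters of Cxcl1, Cxcl2 and Cxcl3 are shown because these closely related genes differ in the cells that express them. Each window is the RefSeq sequence (GRCm38.p6) from 250 bases before to 50 bases after the RefSeq start of the gene, which is not the same base as the GENCODE start given above. Capitals mark matches to a κB-type motif, GGANNTTCC, or to a TATA box, TATAAA, on either strand. The windows are chr5:90890995-90891294 for Cxcl1, chr5:90903649-90903948 for Cxcl2 and chr5:90785851-90786150 for Cxcl3.
Cxcl1: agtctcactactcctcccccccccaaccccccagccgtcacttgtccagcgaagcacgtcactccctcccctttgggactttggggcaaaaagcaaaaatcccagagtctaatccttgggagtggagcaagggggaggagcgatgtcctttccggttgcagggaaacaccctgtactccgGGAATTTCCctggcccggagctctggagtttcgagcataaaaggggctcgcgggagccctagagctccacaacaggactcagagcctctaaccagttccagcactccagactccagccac
Cxcl2: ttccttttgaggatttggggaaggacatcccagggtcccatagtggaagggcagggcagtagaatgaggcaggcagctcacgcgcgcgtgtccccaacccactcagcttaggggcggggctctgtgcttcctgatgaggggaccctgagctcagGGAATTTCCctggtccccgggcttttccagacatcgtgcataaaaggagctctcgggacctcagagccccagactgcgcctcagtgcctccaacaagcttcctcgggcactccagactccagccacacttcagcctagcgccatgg
Cxcl3: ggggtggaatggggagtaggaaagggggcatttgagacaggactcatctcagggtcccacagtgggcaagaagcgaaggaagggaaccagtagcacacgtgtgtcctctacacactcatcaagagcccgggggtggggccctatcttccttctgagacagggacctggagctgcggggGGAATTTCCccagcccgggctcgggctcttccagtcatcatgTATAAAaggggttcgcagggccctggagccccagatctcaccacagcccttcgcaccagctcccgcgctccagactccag
All 3 windows held the same κB-type match, GGAATTTCC, which starts 70 bases before the RefSeq start in Cxcl1, 96 in Cxcl2 and 72 in Cxcl3. Of 32851 promoter windows of the same length, 4.26% held a κB-type match and 13.6% a TATA box. The κB-type motif also matched in Csf3r and in neither Ppbp nor Cxcr2. A C/EBP-type motif, TTGCNNAA, and a PU.1-type motif, GAGGAAGT, were searched as well. Neither string was present in the 6 windows examined, and they were found in 10.8% and 3.20% of all windows. Cxcl5 and Csf3 were not examined for promoter motifs. A match describes the letters and is not evidence of binding.

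The messages also differ in their 3′ ends. AUUUA pentamers (ATTTA in DNA letters) in a 3′ UTR are a known feature of short-lived cytokine messages. The longest annotated 3′ UTR (GENCODE, GRCm38) held 11 ATTTA in Cxcl2, 7 in Cxcl1, 6 in Csf3 and 5 each in Cxcl3 and Cxcl5. It held 2 in Cxcr2, 1 in Ppbp and 0 in Csf3r. Over 21020 genes the median was 1, and 21.6% had at least 5. The 30 bases with the most pentamers are shown for 4 of the genes, with ATTTA in capitals, at chr5:90892602-90892631 for Cxcl1, chr5:90905327-90905356 for Cxcl2, chr5:90787629-90787658 for Cxcl3 and chr11:98702984-98703013 for Csf3.
Cxcl1: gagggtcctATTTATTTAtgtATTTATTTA
Cxcl2: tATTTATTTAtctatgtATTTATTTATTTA
Cxcl3: caagatggcatcttATTTAatgtttATTTA
Csf3: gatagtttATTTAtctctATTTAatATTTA
The ligands thus had more pentamers than the receptors, apart from Ppbp. Among the chemokine transcripts, Cxcl2 and Cxcl3 shared a run of 110 identical bases, 1687 and 850 bases from their 3′ ends. A read lying wholly within that run could not be assigned to either gene, and how many did so was not measured. Every other pair shared at most 23 bases in a row.

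After filtering, 11398 cells with 101201508 UMIs (unique molecular identifiers, each standing for 1 captured RNA molecule) remained in the KPC-shV-labelled library. The KPC-shZEB1-labelled library kept 12104 cells with 118943000 UMIs. The libraries shared 46 barcodes, 36 of them among kept cells. Levels are counts per 1000000 UMIs (CPM) of the class total, the first value of each pair being from the KPC-shV-labelled library. Ratios divide the second library, labelled KPC-shZEB1, by the first. Zeb1 went against the label: in tumour-like cells it was at 167 and 189 CPM, a ratio of 1.13 (1.09–1.17). It was also higher in host cells that do not bear the shRNA, at 159 and 238 CPM in granulocyte-like and 47.3 and 72.8 CPM in monocyte-macrophage-like cells. B-like cells had 429 and 427 CPM, without such a rise. The Zeb1 ratio was 1.13 in T-like, 1.14 in NK-like and 1.12 in dendritic-like cells. It was 1.08 in fibroblast-like and 1.00 in endothelial-like cells. The part of RNA from other cells in the tumour-like value was not tested. The paper reports a check of knockdown efficiency in the KPC cells. Directions below are therefore between labelled libraries and are not tied to a lower Zeb1 level. Values in parentheses are 95% intervals. With 1 library per group they cover counting error only, there was no replicate check, and no test could be made. The tumor, its dissociation, the library and the group cannot be told apart.

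Classes were named from marker genes and carry the ending "-like". Granulocyte-like cells were 6865 of the kept cells (60.2%, 59.3–61.1) in the KPC-shV-labelled library and 4313 (35.6%, 34.8–36.5) in the KPC-shZEB1-labelled library, a ratio of 0.592 (0.569–0.615). A cluster led by acinar genes (Reg3b, Reg1, Ctrb1) held 21 and 295 cells. In the KPC-shZEB1-labelled library, 252 of its 295 cells had more UMIs of granulocyte markers than of acinar markers. With it counted as granulocyte-like, the ratio of shares was 0.630. RNA released into the suspension can reach every droplet. B-like cells, which do not make these factors in quantity, held 1038 and 895 CPM of Cxcl2, 69.8 and 31.8 CPM of Cxcl3, and 42.2 and 30.2 CPM of Csf3r. These values serve as the background level below.

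The 8 genes fell into separate sources. Granulocyte-like cells held 68.0% of all Cxcl2 UMIs, 80.7% of Cxcl3, 84.5% of Cxcr2 and 79.5% of Csf3r over both libraries, against 16.5% of the UMIs of all genes. Tumour-like cells held 71.9% of Cxcl5, 54.2% of Ppbp, 41.0% of Csf3 and 34.3% of Cxcl1, against 31.1% of all UMIs. Fibroblast-like cells held 27.1% of Cxcl1, 19.9% of Csf3 and 16.6% of Cxcl5, with 9.86% of all UMIs. Endothelial-like cells held 6.21% of Csf3 with 2.10% of all UMIs. Monocyte-macrophage-like cells held 24.9% of Cxcl1, 27.6% of Ppbp and 4.82% of Cxcl5, with 28.3% of all UMIs. So the receptors and 2 of the ligands lay mostly in the granulocytes themselves. For 2 of the other genes the leading class differed between libraries. Tumour-like and monocyte-macrophage-like cells held 40.3% and 18.6% of Cxcl1 in the KPC-shV-labelled library, but 28.8% and 30.7% in the other library. For Ppbp the shares were 59.2% and 17.2% in the first library and 43.8% and 49.2% in the second. Tumour-like cells held the largest part of Cxcl5 (80.5% and 63.0%) and Csf3 (50.8% and 34.2%) in both libraries. These shares depend on the name of 1 tumour-like cluster, led by Cntn5 and Prg4. It held 16836 of 21500 and 9394 of 16742 tumour-like UMIs of Cxcl1. For Cxcl5 it held 3169 of 6567 and 2213 of 5035. At resolution 2 a cluster led by Prg4 and Cntn5, of 555 and 249 cells, was named fibroblast-like. The shares under that naming were not computed.

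**Figure D1:**
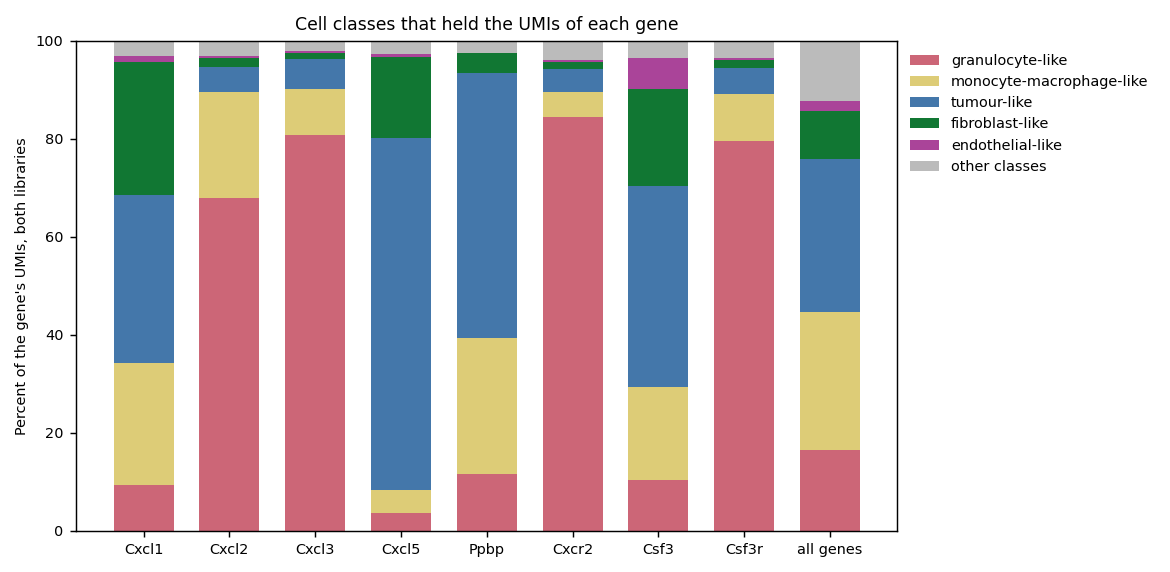
Stacked bars give the percent of each gene's UMIs, over both libraries, that lay in each cell class, with all genes together as the last bar. Granulocyte-like cells hold between 68.0% and 84.5% for Cxcl2, Cxcl3, Cxcr2 and Csf3r, and tumour-like cells hold between 34.3% and 71.9% of the other 4 genes.

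**Figure D2:**
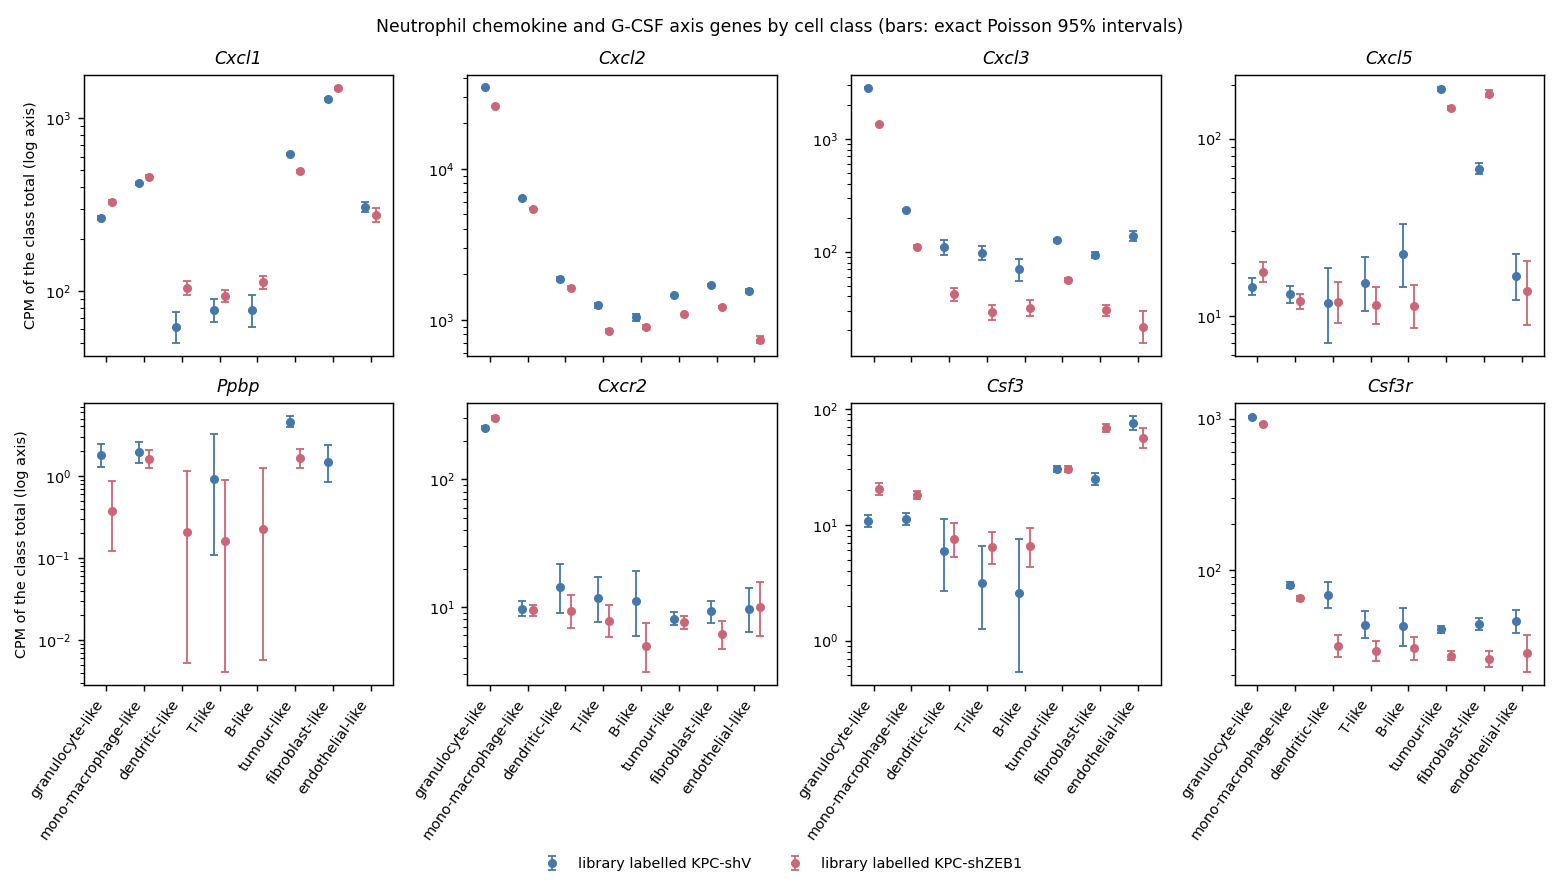
Points are the level of each gene in CPM of the class total (log axis) in 8 cell classes, blue for the KPC-shV-labelled library and red for the KPC-shZEB1-labelled library, with exact Poisson 95% intervals and values of 0 not drawn. Cxcl3 is lower in the KPC-shZEB1-labelled library in all 8 classes drawn, B-like cells included, while Cxcl5 and Csf3 are higher there in fibroblast-like cells.

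The granulocyte ligands were examined first. Cxcl2, the ligand that neutrophils use to recruit each other, was at 34534 CPM (34458–34611) in granulocyte-like cells in the KPC-shV-labelled library and at 26089.8 CPM (26003–26176) in the KPC-shZEB1-labelled library. The ratio was 0.755 (0.752–0.758). The median granulocyte-like cell held 105 and 72 Cxcl2 UMIs, at median depths of 3147 and 2910.0 UMIs. The median cell thus held fewer Cxcl2 UMIs in the KPC-shZEB1-labelled library. Monocyte-macrophage-like cells had 6367 and 5440.1 CPM, a ratio of 0.854 (0.849–0.860). In tumour-like cells, at 1453 and 1084 CPM, and in fibroblast-like cells, at 1705 and 1209.6 CPM, most of the level was matched by the B-like background. The share of cells with a UMI was of no use for Cxcl2: it was 99.8% and 99.9% of granulocyte-like cells but also 97.9% and 94.0% of B-like cells.

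Cxcl3, a close relative of Cxcl2, differed more. Granulocyte-like cells held 2849 CPM (2827–2871) in the KPC-shV-labelled library and 1345 CPM (1326–1365) in the KPC-shZEB1-labelled library, a ratio of 0.472 (0.464–0.480). It had a UMI in 66.0% and 47.5% of granulocyte-like cells, at median depths of 3147 and 2910.0 UMIs, and in 22.1% and 10.0% of B-like cells, at 3732 and 3417.5 UMIs. After each cell was thinned to 1000 UMIs the shares were 52.5% and 34.7% of granulocyte-like cells, with no cell left out, against 26 of 289 and 33 of 1226 B-like cells. Monocyte-macrophage-like cells showed a like ratio, with 234 and 110.5 CPM and 0.473 (0.454–0.492), and Cxcl3 was lower in all 3 of their clusters. Those led by Mmp12, by Ccr2 and Chil3, and by F13a1 had ratios of 0.557, 0.382 and 0.642. Tumour-like cells had 127 and 55.7 CPM and fibroblast-like cells 93.9 and 30.1 CPM, beside a B-like level of 69.8 and 31.8 CPM. The B-like level itself had a ratio of 0.456 (0.344–0.606). With it subtracted, 56.7 and 23.9 CPM remained in tumour-like cells, a ratio of 0.422. In fibroblast-like cells 24.1 and -1.67 CPM remained. The part of background RNA in these values was not tested. Granulocyte markers in B-like cells also summed lower in the KPC-shZEB1-labelled library, at 1218 and 732 CPM, with 1 of 9 higher. Over all kept cells the ratio was 0.287 for Cxcl3 (761 and 218 CPM) and 0.544 for Cxcl2 (10095 and 5487 CPM). These values depend on the granulocyte-like share as well as on the level within each class.

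Part of the Cxcl3 difference went with the kinds of granulocytes present. Granulocyte-like cells were split into 8 sub-clusters without the use of the 8 genes. A sub-cluster led by Nr4a2 and Siglecf held 13.8% of granulocyte-like cells in the KPC-shV-labelled library and 30.8% in the KPC-shZEB1-labelled library. A sub-cluster led by interferon-induced GTPase genes (Gbp5, Gbp2) held 9.64% and 28.8%. These had little Cxcl3, at 952 and 447 CPM in the first and 1579 and 1004 CPM in the second. A sub-cluster led by Lrg1, with the most Cxcl3 (4001 and 2911 CPM), held 27.2% and 16.2%, and one led by Higd1a and Bnip3, genes induced by low oxygen, held 22.0% and 9.11% and had 3722 and 2692 CPM. Not every sub-cluster followed this pattern. The one led by P2rx7 and Ccnf was also low in Cxcl3, at 1550 and 1161 CPM, but held 11.9% and 5.80%. Cxcl3 was lower in the KPC-shZEB1-labelled library in 8 of 8 sub-clusters, with ratios from 0.470 to 0.976. The interval lay below 1 in 7 of the 8, the exception being the smallest sub-cluster, of 96 and 29 cells. With the sub-clusters weighted as in the KPC-shV-labelled library, the ratio was 0.688, short of a 1.5-fold difference.

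Cxcl2 varied less with the sub-cluster. It was lower in 6 of 8, with ratios of 0.729 to 0.806. It was slightly higher in the sub-cluster led by Atp6v0d2 and Gpnmb, a pair of genes of lysosomes, at 28624 and 29653 CPM, and in the smallest one, at 22597 and 24144 CPM. The sub-cluster led by P2rx7 and Ccnf had the least, at 13404 and 9776 CPM. Weighted by sub-cluster the Cxcl2 ratio was 0.795.

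**Figure D3:**
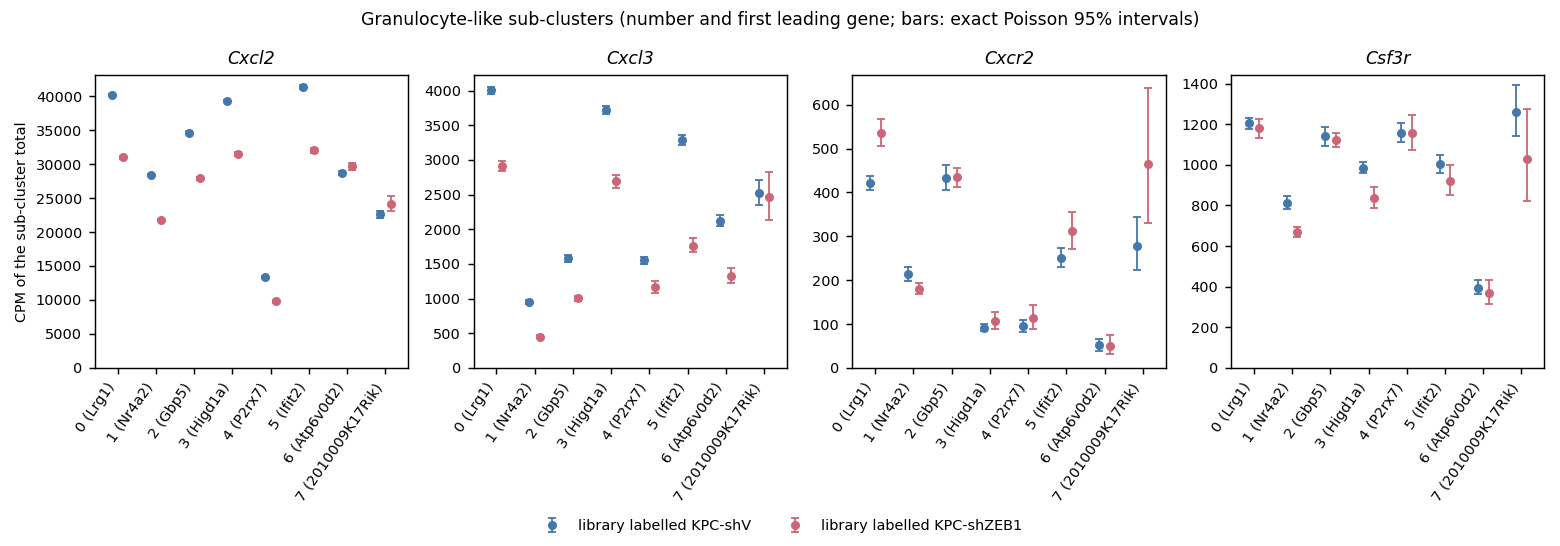
Points are CPM of the sub-cluster total for Cxcl2, Cxcl3, Cxcr2 and Csf3r in the 8 granulocyte-like sub-clusters, named by number and first leading gene, blue for the KPC-shV-labelled library and red for the KPC-shZEB1-labelled library, with exact Poisson 95% intervals. The red Cxcl3 point lies below the blue one in all 8, whereas for Cxcr2 it lies above in 6.

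The receptors differed less. Cxcr2, the receptor of all 5 chemokines, was at 251 CPM (245–258) and 301 CPM (292–311) in granulocyte-like cells, a ratio of 1.20 (1.15–1.25). On the log2 scale this was 0.26. All 12470 genes tested in this class had a median near it, 0.24 with 1 CPM added. The median gene of at least 50 CPM had a ratio of 1.06. No other class drawn exceeded 15 CPM of Cxcr2, and B-like cells had 11.2 and 4.93 CPM. It varied widely within the granulocytes. The Lrg1 sub-cluster, at 421 and 536 CPM, and the Gbp5 sub-cluster, at 434 CPM in each library, had much of it, and the smallest sub-cluster had 279 and 465 CPM. The Higd1a (91.5 and 107 CPM) and P2rx7 (94.8 and 113 CPM) sub-clusters had little and overlapped in their intervals. The Atp6v0d2 sub-cluster had the least, at 51.2 CPM with a ratio of 0.976 (0.572–1.61). The Nr4a2 and Siglecf sub-cluster, at 214 and 181 CPM, was the only one whose ratio, 0.844 (0.763–0.934), lay below 1 beyond counting error.

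Csf3r, the G-CSF receptor, was at 1026 CPM (1013–1039) and 918 CPM (901–934) in granulocyte-like cells, a ratio of 0.894 (0.875–0.914). It was found in 87.2% and 84.1% of these cells, against 13.8% and 9.95% of B-like cells. Its ratio was below 1 in 8 of 8 sub-clusters, from 0.816 to 0.999, but the interval lay below 1 in only 2 of them. The Atp6v0d2 sub-cluster had the least Csf3r, at 396 and 370.2 CPM, and the other sub-clusters ran from 670.1 to 1261 CPM. Monocyte-macrophage-like cells had 78.8 and 64.9 CPM, and tumour-like cells, at 40.5 and 27.0 CPM, did not exceed the B-like level.

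Tumour-like cells, as named here, held most of the Cxcl5 UMIs and a large part of those of Cxcl1. Cxcl1, which cancer cells and fibroblasts release to attract neutrophils, was at 622 CPM (614–631) and 493 CPM (486–501) there, a ratio of 0.793 (0.777–0.809). Cxcl5, a ligand of epithelial cells in particular, was at 190.1 CPM (186–195) and 148 CPM (144–153), a ratio of 0.780 (0.752–0.810). Ppbp, best known as a platelet chemokine, was scarce, with 158 and 56 UMIs, or 4.57 CPM (3.89–5.35) and 1.65 CPM (1.25–2.14), a ratio of 0.361 (0.261–0.492). The 10 cells with the most Ppbp held 70.3% and 57.1% of these UMIs, and without them the ratio was 0.522. The 6 platelet markers summed to 7.64 and 5.36 CPM in tumour-like cells, with 0 of 6 higher in the KPC-shZEB1-labelled library, and their part in the Ppbp value was not tested. Csf3 did not differ detectably, at 30.5 CPM (28.6–32.4) and 30.2 CPM (28.4–32.1), a ratio of 0.993 (0.910–1.08).

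Beyond tumour-like and fibroblast-like cells, Cxcl5 did not stand out from the B-like level of 22.4 and 11.4 CPM in granulocyte-like cells (14.6 and 17.6 CPM) or monocyte-macrophage-like cells (13.2 and 12.1 CPM). Ppbp had 41 and 5 UMIs in granulocyte-like cells, too few for the count of genes past 1.5-fold.

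The totals of tumour-like cells mixed clusters that differed in different ways. In the cluster led by Epcam and other epithelial genes, Cxcl5 was at 278 and 159 CPM, a ratio of 0.573 (0.543–0.605). The cluster led by Cntn5 and Prg4 had 148 and 182 CPM, a ratio of 1.23 (1.16–1.29), and a cluster of few UMIs had 50.4 and 94.9 CPM, a ratio of 1.88 (1.34–2.69). The cluster of few UMIs was also led by epithelial genes, such as Krt18 and Krt7. Of these 3 clusters, Cxcl5 was lower in the KPC-shZEB1-labelled library in the Epcam cluster and higher in the other two. Cxcl1 was at 370.4 and 323 CPM in the Epcam cluster, a ratio of 0.873 (0.837–0.911), and at 788 and 772 CPM in the Prg4 cluster, a ratio of 0.980 (0.955–1.00). It was at 145 and 285 CPM in the cluster of few UMIs, a ratio of 1.96 (1.61–2.40). The Prg4 cluster, which had the most Cxcl1, was 50.3% of tumour-like cells in the KPC-shV-labelled library and 28.2% in the KPC-shZEB1-labelled library. A cluster led by Zfp804b, Pcdh9 and Ralyl, with 9 and 223 cells, was almost confined to the KPC-shZEB1-labelled library, where it had 373 CPM of Cxcl1, 78.9 of Cxcl5 and 9.69 of Csf3. With the clusters weighted as in the KPC-shV-labelled library, the Cxcl1 ratio was 0.964 and the Cxcl5 ratio 0.898. The same weighting took Csf3 to 1.28, and in the Prg4 cluster Csf3 was at 33.4 and 46.9 CPM, a ratio of 1.40 (1.25–1.57).

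Cxcl1 exceeded its B-like level of 77.6 and 113 CPM in granulocyte-like, monocyte-macrophage-like, tumour-like, fibroblast-like and endothelial-like cells. Granulocyte-like cells had 265 and 328 CPM, a ratio of 1.24 (1.19–1.29), and monocyte-macrophage-like cells 422 and 461 CPM, a ratio of 1.09 (1.07–1.12). Within these classes the direction varied. The Lrg1 sub-cluster of granulocyte-like cells had 247 and 175 CPM, a ratio of 0.710 (0.633–0.794), while the other 7 sub-clusters had ratios above 1. The monocyte-macrophage-like cluster led by Ccr2 and Chil3 had 482 and 437 CPM, a ratio of 0.908 (0.866–0.952), and the other 2 had ratios above 1. The B-like level had a ratio of 1.45 (1.16–1.84), and with it subtracted the monocyte-macrophage-like ratio was 1.01. Over all kept cells Cxcl1 was at 527 and 489 CPM. Endothelial-like cells had 306 and 276 CPM, a ratio of 0.903 (0.807–1.01), which the depth could not tell from 1. The 24 pericyte-like cells had 1644 and 1409 CPM.

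In fibroblast-like cells, Cxcl5 and Csf3 were higher in the KPC-shZEB1-labelled library. Cxcl5 was at 67.7 CPM (62.9–72.8) in the KPC-shV-labelled library and at 179.5 CPM (172–188) in the KPC-shZEB1-labelled library, a ratio of 2.65 (2.43–2.89). Csf3 was at 24.8 CPM (21.9–27.9) and 68.4 CPM (63.6–73.6), a ratio of 2.76 (2.40–3.18). Cxcl1 had its highest level among the classes of over 100 cells here, at 1293 and 1491 CPM, with a smaller difference, a ratio of 1.15 (1.13–1.18). These classes held 361 and 380 cells, at median depths of 29139 and 28070.5 UMIs.

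A few fibroblast-like cells held much of the Cxcl5 and Csf3 message. Cxcl5 had a UMI in 39.6% (34.5–44.9) and 52.9% (47.7–58.0) of them, against 8.65% and 4.00% of B-like cells. The 10 cells with the most held 57.8% and 36.3% of its UMIs. Csf3 had a UMI in 19.1% (15.2–23.6) and 26.8% (22.5–31.6), against 1.04% and 2.37% of B-like cells, and its 10 leading cells held 58.3% and 48.2%. Markers of tumour-like cells, which as named here held most of the Cxcl5 UMIs, summed to 344 and 403 CPM in fibroblast-like cells. Of these markers, 5 of 6 were higher in the KPC-shZEB1-labelled library and none was at 0. In B-like cells they summed to 364 and 487 CPM. Their part in the Cxcl5 value was not tested. After thinning to 1000 UMIs, Cxcl5 was found in 3.60% and 10.5% of fibroblast-like cells and Csf3 in 1.11% and 5.00%. The thinned B-like shares were 2.77% and 1.88% for Cxcl5 and 0.346% and 0.816% for Csf3, so the thinned Cxcl5 share of the KPC-shV-labelled library was close to background. With those 10 cells of each library left out, the ratios were 3.98 for Cxcl5 and 3.44 for Csf3. Leiden resolution 2, which named a part of the tumour-like cells fibroblast-like, took them to 1.60 and 2.10. Without the 8% of cells with the highest doublet scores, where the same cells took that name, they were 1.69 and 2.18. Ppbp had 16 UMIs and 0 UMIs in fibroblast-like cells, where a count of 0 allows up to 0.278 CPM, so on that floor it was at least 5.26-fold lower in the KPC-shZEB1-labelled library. The exact interval of the ratio, which also counts the error of the 16 UMIs, reached up to 0.263. All 16 UMIs came from 4 cells, and 1 cell held 13 of them, so the difference rests largely on that cell.

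Csf3 was present in further classes. Endothelial-like cells, of which there were 147 and 82, had 75.7 CPM (65.9–86.6) and 56.3 CPM (45.9–68.4), a ratio of 0.744 (0.582–0.946), and 10 cells held 70.0% and 92.2% of it. Granulocyte-like cells had 10.8 and 20.6 CPM, a ratio of 1.90 (1.60–2.27), and monocyte-macrophage-like cells 11.2 and 18.1 CPM, a ratio of 1.62 (1.40–1.87). In all 3 monocyte-macrophage-like clusters Csf3 was higher, with ratios of 1.48, 2.29 and 1.54. These low levels stand beside a B-like level of 2.59 and 6.49 CPM, a ratio of 2.51 (0.779–12.9). With the B-like level subtracted, the Csf3 ratio was 1.71 in granulocyte-like cells and 1.35 in monocyte-macrophage-like cells. In the KPC-shV-labelled library the order of Csf3 levels was endothelial-like, tumour-like and fibroblast-like, with intervals that did not overlap. These intervals leave out the spread between cells. There, 10 cells held 58.3% of the fibroblast-like and 21.9% of the tumour-like Csf3 UMIs, so the order is not secure. In the KPC-shZEB1-labelled library, fibroblast-like cells (68.4 CPM) and endothelial-like cells (56.3 CPM) had overlapping intervals.

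**Figure D4:**
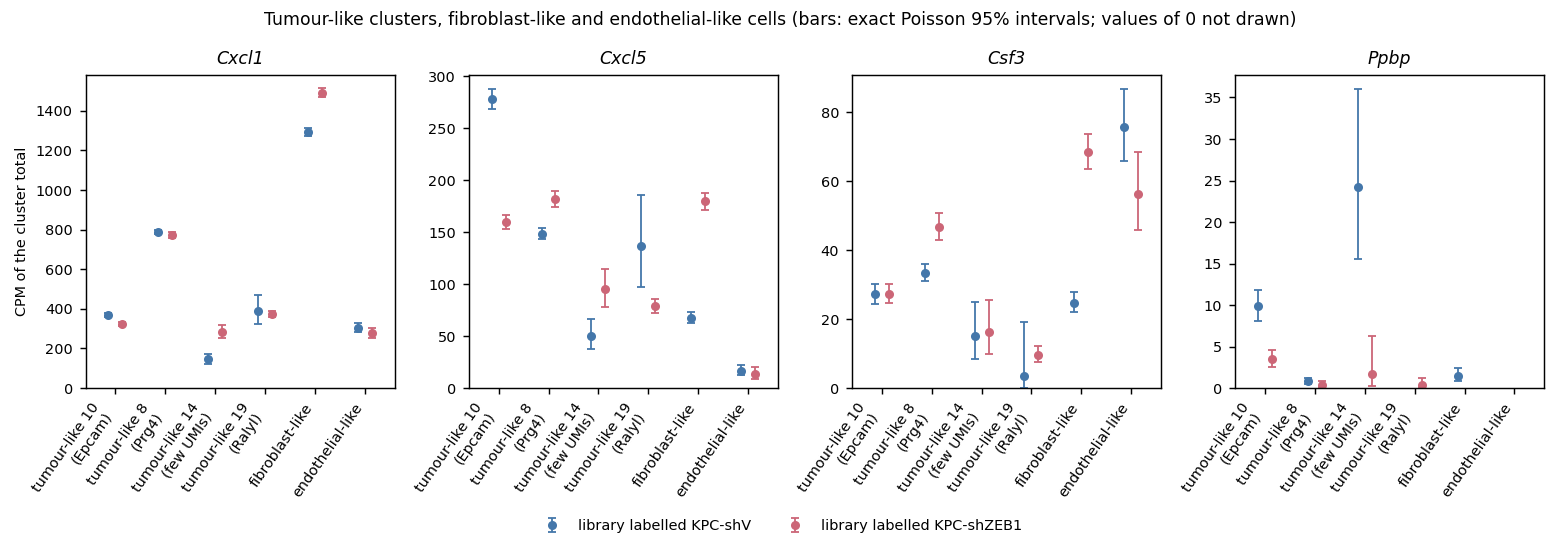
Points are CPM of the cluster total for Cxcl1, Cxcl5, Csf3 and Ppbp in the 4 tumour-like clusters and in fibroblast-like and endothelial-like cells, blue for the KPC-shV-labelled library and red for the KPC-shZEB1-labelled library, with exact Poisson 95% intervals and values of 0 not drawn. Cxcl5 stands at 278 and 159 CPM in the Epcam cluster and at 67.7 and 179.5 CPM in fibroblast-like cells.

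The counts of genes past 1.5-fold give the scale of these differences. In granulocyte-like cells, 7 of the 8 genes had at least 50 UMIs, and 1 was higher (Csf3) and 1 lower (Cxcl3) in the KPC-shZEB1-labelled library, where 22.2% and 2.84% of 12470 genes were higher and lower. In monocyte-macrophage-like cells, 1 of 8 was higher (Csf3) and 1 lower (Cxcl3), against 8.54% and 1.66% of 13708 genes. With the B-like level subtracted, the Csf3 ratio there was 1.35, short of 1.5-fold. In tumour-like cells, 0 of 8 were higher and 2 lower (Cxcl3, Ppbp), against 10.8% and 3.79% of 15212 genes. In fibroblast-like cells, 2 of 7 were higher (Cxcl5, Csf3) and 3 lower (Cxcl3, Cxcr2, Csf3r), against 5.88% and 5.18% of 12575 genes. In the KPC-shV-labelled library, the fibroblast-like level of each of the 3 lower genes was within 1.5-fold of the B-like level or below it. In endothelial-like cells, 0 of 6 were higher and 3 lower (Cxcl2, Cxcl3, Csf3r), against 8.53% and 5.71% of 8630 genes. Endothelial-like Cxcl2 was at 1553 and 735 CPM, beside 1038 and 895 CPM in B-like cells. Endothelial-like Cxcl3 was at 138 and 21.5 CPM, beside 69.8 and 31.8 CPM in B-like cells, and 10 cells held 69.8% and 51.3% of it. Endothelial-like Csf3r was at 45.5 and 28.2 CPM, beside 42.2 and 30.2 CPM. In the KPC-shZEB1-labelled library all 3 were below the B-like level. The part of background RNA in these differences was not tested. The median log2 ratio of the genes with at least 50 UMIs, with 1 CPM added, was 0.25 in granulocyte-like, -0.15 in monocyte-macrophage-like, -0.39 in tumour-like, -0.50 in fibroblast-like and -0.55 in endothelial-like cells. All genes tested had medians of 0.24, 0.04, 0.03, -0.03 and 0.05 in the same order.

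Genes upstream and downstream of the axis were read against the same shares of all genes, 22.2% higher and 2.84% lower in granulocyte-like, 10.8% and 3.79% in tumour-like and 5.88% and 5.18% in fibroblast-like cells. The lists are short, and their counts are a description. Of 7 inducing cytokine genes, 5 had at least 50 UMIs in granulocyte-like cells and 0 passed 1.5-fold. Il1b, the main inducer of these chemokines, was at 16829.9 and 17119 CPM and Tnf at 799.6 and 798 CPM. In tumour-like cells Csf2, the gene of GM-CSF, was at 43.9 and 23.5 CPM, the 1 of 5 that passed. Csf2 was also the 1 of 5 that passed in fibroblast-like cells, at 4.12 and 2.69 CPM, where Il6 was at 593 and 683 CPM. With class totals of 10923857 and 10783744 UMIs, this Csf2 difference rests on few UMIs and is weaker than the tumour-like one. None of the 5 receptor genes of these inducers passed in granulocyte-like, tumour-like or fibroblast-like cells, and none of the 7 NF-κB regulators and mRNA decay factors did. Nfkbia, the inhibitor of NF-κB, was at 7201 and 5893 CPM in granulocyte-like cells, and Zfp36, which destabilizes AU-rich messages, at 1490.1 and 1386 CPM. Of the 6 genes of G-CSF signalling, 0 passed in granulocyte-like cells, where Stat3 was at 440.5 and 454.5 CPM and Socs3 at 559 and 536 CPM. The medians in granulocyte-like cells were 0.21 for the receptors of the inducers and 0.02 for the NF-κB and decay list, on the log2 scale with 1 CPM added. In tumour-like cells 1 of 5 genes of G-CSF signalling passed, Socs3, the feedback inhibitor, at 237 and 152 CPM.

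Other attractants of neutrophils and myeloid cells were read in the same cells. Of 13 such genes and receptors, 12 had at least 50 UMIs in granulocyte-like cells, and 1 was higher (Cxcl12) and 2 lower (Ccl3, Cxcl15), against 22.2% and 2.84% of all genes. Ccl3, an inflammatory chemokine, was at 7624 and 4745 CPM, and Ccl4 at 6998 and 5341 CPM, short of 1.5-fold. Fpr1, the formyl peptide receptor, was at 245 and 169 CPM and C5ar1, the complement receptor, at 735 and 652 CPM. The list had a median log2 ratio of -0.21, where all tested genes had 0.24, both with 1 CPM added. Cxcl12, which retains neutrophils in the marrow, was at 326 and 443 CPM in fibroblast-like cells. Fibroblast markers in granulocyte-like cells summed to 552 and 740 CPM, with 6 of 6 higher in the KPC-shZEB1-labelled library. The part of fibroblast RNA in the granulocyte-like Cxcl12 value was not tested. None of 8 adhesion genes of neutrophil recruitment passed in granulocyte-like cells, where Icam1 had the highest ratio of the 8, at 539 and 795 CPM.

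Genes of the response to dissociation were also read. Of 10 such genes, 0 were higher and 1 lower past 1.5-fold in granulocyte-like cells, against 22.2% and 2.84% of all genes. Their median log2 ratio, with 1 CPM added, was -0.30, against 0.24 for all genes. In tumour-like cells 0 were higher and 2 lower, against 10.8% and 3.79% of all genes, with a median of -0.34 against 0.03. In fibroblast-like cells 0 were higher and 1 lower, against 5.88% and 5.18%, with a median of -0.21 against -0.03. Summed granulocyte markers were at 38718 and 27039.7 CPM within granulocyte-like cells, with 2 of 9 higher in the KPC-shZEB1-labelled library, and monocyte-macrophage markers at 541 and 1158 CPM, with 9 of 10 higher. Their part in the ligand levels was not tested.

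Across the 23 clusters of at least 100 cells, with libraries pooled, the 4 genes held mostly by granulocyte-like cells were alike. Their shared class largely fixes this in advance. Within granulocyte-like cells, Cxcl3 and Cxcr2 differed in pattern. In the KPC-shV-labelled library the Higd1a sub-cluster had 3722 CPM of Cxcl3 and 91.5 CPM of Cxcr2. The Gbp5 sub-cluster had 1579 and 434 CPM. Cxcl2, Cxcl3, Cxcr2 and Csf3r had Pearson correlations of 0.908 to 0.973 with each other on log2(CPM + 1), and Cxcl5 had -0.32 with Cxcl2. The other 4 genes were less alike, from 0.724 for Cxcl1 and Csf3 to 0.148 for Ppbp and Csf3. The genes most like Cxcl2 were Clec4d (0.996), Cd33 (0.987) and Clec4e (0.987). Those most like Cxcl3 were Wfdc21 (0.979), Cstdc4 (0.976) and Mirt2 (0.972). Those most like Cxcr2 were G0s2 (0.989), Hdc (0.988) and Mrgpra2b (0.987), and those most like Csf3r were Acod1 (0.994), Hcar2 (0.984) and Gm43660 (0.983). For Cxcl5 they were Rdh10 (0.969), Il11 (0.962) and Ctxn1 (0.955), and for Cxcl1 Phlda1 (0.900), Rhou (0.879) and Ctsl (0.875). For Csf3 they were Arhgap23 (0.835), Cebpd (0.831) and Id3 (0.819), and for Ppbp S100a14 (0.803), 1700016C15Rik (0.783) and Cyp3a13 (0.770). The clusters share libraries, depth and background RNA, so these values describe likeness alone.

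**Figure D5:**
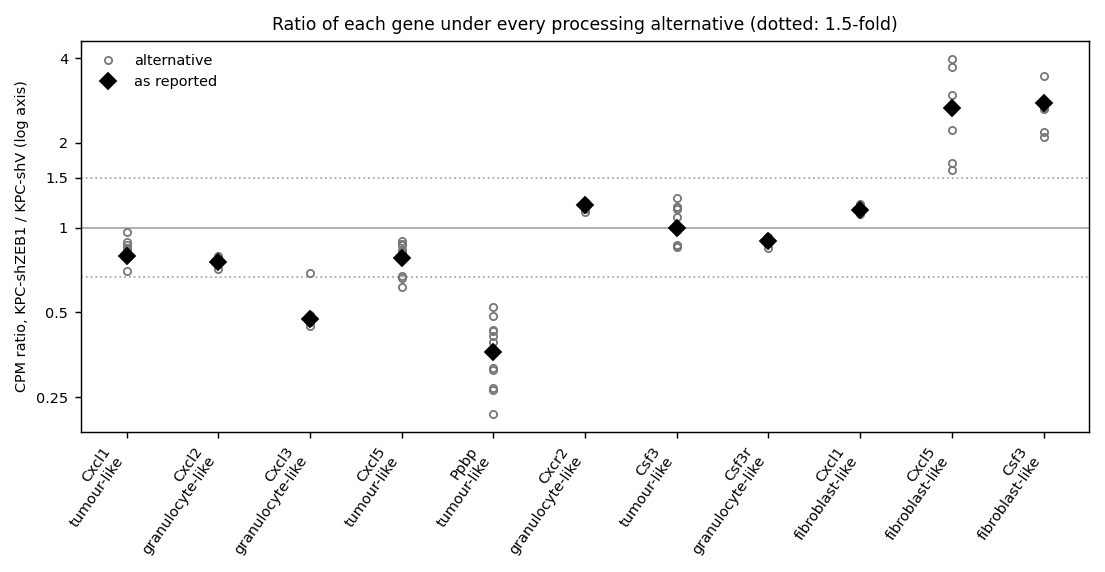
Black diamonds are the reported CPM ratios (log axis) of each gene in its main class and of 3 genes in fibroblast-like cells, and open circles are the same ratio under each processing alternative, with dotted lines at 1.5-fold. Csf3 in tumour-like cells lies on both sides of 1, and Cxcl3 in granulocyte-like cells lies inside the dotted lines under 1 alternative, at 0.688, while Cxcl5 in tumour-like cells passes the lower dotted line under 2, at 0.615 and 0.665.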

How the data were processed

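Single-cell RNA was measured in 1 tumor per group. The deposited files hold raw UMI counts for called cells, obtained by the authors from 10x 3′ libraries with Cell Ranger 7.0.1 and mm10. Whether introns were counted is not given in the sources used here. Per library, 12594 barcodes with 130941086 UMIs and 13271 barcodes with 143461224 UMIs were read. Barcodes below 500 genes, outside 1000 to 60000 UMIs or above 15% mitochondrial UMIs were dropped. Cells with a Scrublet score above 0.2 (315 and 343) were removed, a limit set after the scores were seen, where the study used DoubletFinder. The automatic threshold had called 0 and 265 cells.

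Cells were clustered jointly (scanpy 1.11.5, leidenalg 0.10.2, 3000 variable genes, 30 components, 20 neighbors, resolution 1) without aligning the libraries, where the study used Harmony. The 8 genes, Zeb1 and the listed pathway genes were kept out of the variable genes. Granulocyte-like cells were split again (2000 genes, 20 components, resolution 0.6). Classes were named from markers by a rule set after the data were seen.

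UMIs were summed by class and library and given as CPM with exact Poisson intervals. Shares have Clopper-Pearson intervals and ratios exact conditional intervals (scipy 1.17.1), all at 95%. They cover counting error only. A count of 0 was bounded by 3 counts. Genes with at least 50 UMIs in a class over both libraries were read against 1.5-fold. The genes named as most alike had at least 500 UMIs in the gene's main class, the named class with the most of its UMIs. The ratio, its interval and the 1.5-fold rule were tested on simulated data. The genes, lists and markers were chosen with earlier results of these data known. Named genes are the 8 genes, members of 7 fixed lists and the 3 most alike; genes that lead clusters, and which list members are quoted, were chosen after their values were seen. Alternatives are given in the closing section.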

Additional observations from a re-analysis of the deposited data

Results flagged for a closer look

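The cluster led by acinar genes belongs to none of the classes compared. Its levels in the KPC-shZEB1-labelled library were above those in the KPC-shV-labelled library, the control. In the KPC-shZEB1-labelled library its 295 cells held 20829.8 CPM of Cxcl2, 219 CPM of Cxcr2 and 669 CPM of Csf3r, against 6462, 31.7 and 203 CPM in the 21 cells of the KPC-shV-labelled library. The median cell held 50 UMIs of granulocyte markers and 6 of acinar markers in the KPC-shZEB1-labelled library, and 20 and 533 in the KPC-shV-labelled library. The cells of this cluster thus differed in make-up between libraries, and its levels do not compare like cells. At resolution 2, a cluster led by Pnlip, Abca13 and G0s2 was named granulocyte-like. It held 5 cells of the KPC-shV-labelled library and 291 of the other. The acinar-like cluster of that setting held 16 and 36 cells.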

How the results depend on the processing

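No paired analysis was possible because each group has 1 library. Of 96 alternative values of the ratios in the main classes, 50 stayed within the counting interval, 46 moved beyond it and 5 crossed 1, all of Csf3, which was not called. No ratio past 1.5-fold turned to the other side of 1. Ratios were, with each library clustered alone, 0.846 (Cxcl1), 0.759 (Cxcl2), 0.865 (Cxcl5), 1.18 (Csf3), 1.12 (fibroblast-like Cxcl1) and 0.627 (granulocyte-like share). With at least 200 genes and 500 UMIs they were 0.846, 0.760, 0.876 and 1.18 for Cxcl1, Cxcl2, Cxcl5 and Csf3, and 0.626 for the share. At resolution 2 the same 4 genes had 0.865, 0.759, 0.615 and 0.862, fibroblast-like Cxcl1, Cxcl5 and Csf3 1.21, 1.60 and 2.10, and the share 0.627. Without the 8% highest doublet scores these were 0.891, 0.761, 0.665 and 0.865, then 1.20, 1.69 and 2.18, and 0.638. In these 2 settings the Cntn5 and Prg4 cluster was named fibroblast-like. With no upper UMI limit, Cxcl1 had 0.827, Cxcl5 0.673, Csf3 1.09 and fibroblast-like Cxcl1 and Cxcl5 1.21 and 2.21. With no doublet removal, Cxcl1 had 0.811 and Cxcl5 0.830. Without clusters of which over 90% came from 1 library, Cxcl1 had 0.841, Cxcl5 0.875, Csf3 1.16 and the share 0.616. With the B-like level subtracted, Cxcl1 had 0.699, Cxcl2 0.752, Cxcl5 0.816, Csf3 0.852 and fibroblast-like Cxcl5 3.71. As a mean over cells, Cxcl1 had 0.837, Cxcl2 0.772, Cxcl3 0.488, Cxcl5 0.828, Ppbp 0.217 and fibroblast-like Cxcl5 2.96. Relative to the class median, Cxcl2 had 0.713, Cxcl3 0.446, Cxcr2 1.13 and Csf3r 0.844; the median granulocyte-like gene of at least 50 CPM had a ratio of 1.06.

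Chosen after the data were seen were 3 alternatives. Weighting clusters as in the KPC-shV-labelled library gave 0.964 (Cxcl1), 0.795 (Cxcl2), 0.688 (Cxcl3), 0.898 (Cxcl5), 1.28 (Csf3) and 0.926 (Csf3r). Counting the acinar-led cluster as granulocyte-like gave 0.749 (Cxcl2), 0.461 (Cxcl3) and 0.630 (share). Leaving out the 10 leading cells gave 0.522 (Ppbp), 3.98 (fibroblast-like Cxcl5) and 3.44 (fibroblast-like Csf3). The cause of these moves was not tested.

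Counts of genes past 1.5-fold depended on the minimum count. With at least 1 UMI in each library they were 6249 higher and 1359 lower in granulocyte-like cells, 3275 and 1815 in monocyte-macrophage-like cells, 4021 and 1727 in tumour-like cells, 2703 and 2207 in fibroblast-like cells and 3304 and 1923 in endothelial-like cells. With 1 CPM added they were 637 and 112 in monocyte-macrophage-like cells and 1079 and 298 in tumour-like cells, against 1170 and 227, and 1647 and 577. Ppbp, with 214 UMIs in tumour-like cells, was limited by depth.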
